A study of Mus musculus with 6 samples.

Results

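The genes described here are Fgf21, Gdf15, Adm2, Stc2, Sesn2 and Ddit4, which encode factors that cells secrete under stress and inhibitors of the growth kinase complex mTORC1. They were picked by symbol, 1 locus each, and make up 6 of the 25001 loci in the expression tables, of which 22601 carry a symbol. They were chosen with their response to EICD already known, so their values in that comparison are a description. RNA sequencing of 427 cells, a mouse thymoma cell line, gave 6 libraries with 1 library per condition, so no difference below has a replicate check and no p-value was computed. 427_DMSO and 427_PMA were cells carrying the pSUPER vector without an insert, given the solvent DMSO or 1 µM of the phorbol ester PMA, which induces shedding of the membrane protease epithin/PRSS14, for 2 h after 2 h without serum. SP2bKD_DMSO and SP2bKD_PMA were cells with a knockdown of SPPL2b, the protease that releases the intracellular domain (EICD) of epithin/PRSS14, treated in the same way. SP2bKD_GFP and SP2bKD_GFP_EICD were knockdown cells transfected with GFP or with GFP and FLAG-tagged EICD, the first 55 residues of epithin/PRSS14, and sorted for GFP 24 h later. All 4 knockdown libraries are labelled with an siRNA, whereas the study's methods describe a stable shRNA and, for the transfected cells, a single clone.

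Cells that lack amino acids, fold proteins poorly or suffer other stress phosphorylate the translation factor eIF2, and the transcription factor ATF4 is then made in larger amounts. This integrated stress response raises genes for amino acid uptake and synthesis, and it also raises secreted factors and brakes on growth. FGF21 is a hormone that acts through an FGF receptor together with the co-receptor beta-Klotho, and GDF15 is a hormone that acts through the receptor GFRAL with the kinase RET. Adrenomedullin 2, encoded by Adm2, is a peptide that acts through the calcitonin receptor-like receptor with a RAMP protein, and stanniocalcin 2, encoded by Stc2, is a secreted glycoprotein. Sestrin 2, encoded by Sesn2, holds back mTORC1 when leucine is short, and REDD1, encoded by Ddit4, holds it back through the TSC complex, also in hypoxia.

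On GRCm38, Fgf21 (ENSMUSG00000030827) lies on chromosome 7 from 45613907 to 45615490 on the minus strand. Gdf15 (ENSMUSG00000038508) lies on chromosome 8 from 70629393 to 70632456 on the minus strand. Sesn2 (ENSMUSG00000028893) lies on chromosome 4 from 132492032 to 132510501 on the minus strand, and Ddit4 (ENSMUSG00000020108) on chromosome 10 from 59949636 to 59952665 on the minus strand. Adm2 (ENSMUSG00000054136) spans 89322972 to 89324728 on the plus strand of chromosome 15, and Stc2 (ENSMUSG00000020303) spans 31357307 to 31370256 on the minus strand of chromosome 11. The gene models of Stc2 and Ddit4 include isoforms that the authors assembled from their reads, and the others follow the annotation.

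The sequences before a RefSeq start of the 4 genes that differed more than 2-fold with EICD are shown because these genes carry the main observation. They are from RefSeq (GRCm38.p6), read 5′ to 3′ on the minus strand and cut where an annotated exon begins. Capitals mark matches to the motifs searched on both strands, which were TGATGNAA (the composite element bound by ATF4), TGANTCA (an AP-1 site), ACGTG (the core of the hypoxia response element), the endoplasmic reticulum stress element and TATAAA.
Fgf21, chr7:45615491-45615740: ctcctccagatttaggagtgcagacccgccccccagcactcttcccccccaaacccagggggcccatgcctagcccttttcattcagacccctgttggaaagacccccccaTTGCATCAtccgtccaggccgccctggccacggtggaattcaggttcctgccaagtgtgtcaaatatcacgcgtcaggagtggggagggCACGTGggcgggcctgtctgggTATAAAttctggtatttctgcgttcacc
Gdf15, chr8:70632457-70632706: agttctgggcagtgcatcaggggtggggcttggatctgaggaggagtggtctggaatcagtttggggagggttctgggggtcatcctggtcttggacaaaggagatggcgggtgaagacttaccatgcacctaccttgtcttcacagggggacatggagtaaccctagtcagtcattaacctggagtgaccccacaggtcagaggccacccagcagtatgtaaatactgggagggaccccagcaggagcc
Sesn2, chr4:132510502-132510706: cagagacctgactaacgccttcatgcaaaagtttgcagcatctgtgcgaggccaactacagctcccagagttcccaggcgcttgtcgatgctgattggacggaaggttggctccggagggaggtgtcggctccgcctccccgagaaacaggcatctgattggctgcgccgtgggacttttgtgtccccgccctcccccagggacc
Ddit4, chr10:59951835-59952020: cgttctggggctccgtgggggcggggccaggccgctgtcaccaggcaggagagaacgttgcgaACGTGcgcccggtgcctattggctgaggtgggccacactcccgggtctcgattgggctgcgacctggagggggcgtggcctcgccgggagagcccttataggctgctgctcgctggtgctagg

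The Fgf21 stretch held the ATF4 element on the opposite strand with its first base at -139 from the start site, a CACGTG at -50, which is ACGTG on both strands, and a TATA box at -28. The Ddit4 stretch held ACGTG at -187 from its RefSeq start. This start lies inside the wider Ddit4 locus of the authors' gene models given above, so the stretch is upstream of the RefSeq transcript and not of that locus. The stretches of Gdf15 and Sesn2 shown held none of these letters. A second RefSeq start of Gdf15 also had ACGTG on both strands, at -83, in a window that overlaps an annotated exon and is not printed. The windows of Adm2 and Stc2 held no match. The windows searched also reach past the start site, so they are longer than the stretches shown. Over 32851 RefSeq promoter windows of the length searched, 3.97% held the ATF4 element, 7.81% the AP-1 site, 19.6% ACGTG, 0.119% the endoplasmic reticulum stress element and 13.6% TATAAA. A match is a run of letters and not a measured binding site.

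The tables hold FPKM, that is, fragments per kilobase of transcript, scaled to the depth of the library. By the steps between the lowest FPKM values, the libraries held about 25300000 to 29000000 fragments, and 10555 to 10873 loci per library had an FPKM of 1 or more. Sppl2b, the target of the knockdown, was not lower in the libraries labelled SP2bKD: its FPKM was 9.90 in 427_DMSO and 13.4 in SP2bKD_DMSO, and 6.86 in 427_PMA and 9.37 in SP2bKD_PMA. Directions between the lines below therefore rest on the labels. St14, which encodes epithin/PRSS14 and from which the EICD construct derives, had 69.6 FPKM with GFP and 614.5 with GFP plus EICD. Keratin 14 was at 1355 FPKM or more and Epcam at 140 or more in every library, while the T cell genes Cd3e and Cd4 were listed at 0 in all 6 and the summed FPKM of 5 T cell markers was at most 0.304. The summed FPKM of the markers of fibroblasts was at most 0.446, of endothelial cells at most 0.282 and of macrophages 1.31 to 2.62, the last nearly all from Cd68.

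With EICD, all 4 of the genes that reached 1 FPKM in either transfected library were more than 2-fold higher, 2 secreted factors and both mTORC1 inhibitors. Of all 11000 loci at 1 FPKM or more, 3.93% passed 2-fold upward and 0.836% downward, but the genes were chosen with this contrast known and their count is not evidence. Their median log2 ratio was 1.72, beside 0.066 for all loci tested. Ratios here and below are on the log2(FPKM + 0.01) scale. These are bulk libraries, in which more cells with an mRNA and more of that mRNA per cell cannot be told apart.

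Fgf21 had an FPKM of 1.63 in 427_DMSO, 0.775 in 427_PMA, 1.54 in SP2bKD_DMSO, 0.426 in SP2bKD_PMA, 1.16 in SP2bKD_GFP and 10.3 in SP2bKD_GFP_EICD. The EICD library stood above the other 5, which stayed under 2 FPKM. Against GFP the log2 ratio was 3.14, or 8.83-fold, and 2.39 with 1 FPKM added, and it ranked 17 of 10687 loci with a symbol that passed the minimum. About 27.8 fragments stood behind the GFP value and 260 behind the EICD value, as estimated from the longest annotated transcript.

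Gdf15 had an FPKM of 2.39 in 427_DMSO, 2.25 in 427_PMA, 0.344 in SP2bKD_DMSO, 0.0465 in SP2bKD_PMA, 1.78 in SP2bKD_GFP and 7.65 in SP2bKD_GFP_EICD. It was highest with EICD and lowest in the untransfected libraries labelled SP2bKD. The GFP library lay between the latter and the 427 libraries. The log2 ratio of EICD to GFP was 2.09, or 4.27-fold, at rank 51.

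Sesn2 had an FPKM of 6.44 in 427_DMSO, 5.14 in 427_PMA, 6.33 in SP2bKD_DMSO, 4.87 in SP2bKD_PMA, 7.32 in SP2bKD_GFP and 18.7 in SP2bKD_GFP_EICD. The 5 libraries without EICD lay close together, and the EICD library was 2.56-fold above GFP, a log2 ratio of 1.36. Ddit4, which had the highest FPKM of the 6 genes in every library, stood at 172.4 FPKM in 427_DMSO, 69.4 in 427_PMA, 140.1 in SP2bKD_DMSO, 74.1 in SP2bKD_PMA, 148.4 in SP2bKD_GFP and 310.1 in SP2bKD_GFP_EICD. The EICD library was highest and both PMA libraries were lowest. The log2 ratio of EICD to GFP was 1.06, or 2.09-fold, just past the 2-fold line, and was 0.88 after each library was scaled to the same FPKM sum, which shifted the median of all loci by -0.18 and the split of all loci past 2-fold from 432 higher and 92 lower to 290 and 135.

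Adm2 and Stc2 were near the detection limit. Adm2 was listed at 0 in 4 libraries, at 0.0395 FPKM in 427_PMA and at 0.396 in SP2bKD_GFP_EICD, where about 13.7 fragments were estimated. Stc2 had 0.300 FPKM in 427_DMSO, 0.160 in 427_PMA, 0.0172 in SP2bKD_PMA, 0.0489 in SP2bKD_GFP and 0.152 in SP2bKD_GFP_EICD, and was listed at 0 in SP2bKD_DMSO. It was the only one of the 6 genes whose highest library was 427_DMSO, and its EICD value was below that level. No fold is given for Adm2, and that of Stc2 with EICD would rest on about 4.92 and 16.1 fragments.

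**Figure D1:**
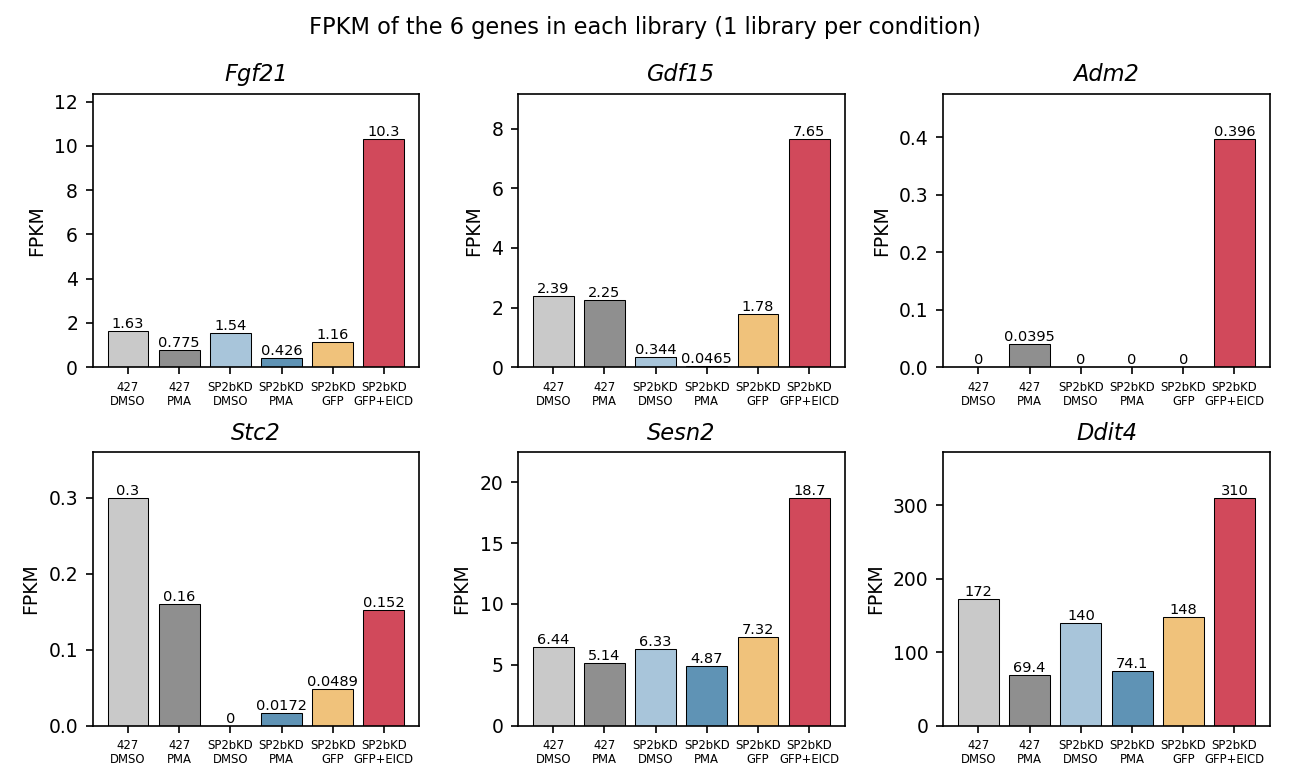
FPKM of each of the 6 genes (1 panel per gene, y axis in FPKM with its own range) in the 6 libraries, 1 value per condition and no error. The EICD library is the highest for Fgf21 (10.3), Gdf15 (7.65), Adm2 (0.396), Sesn2 (18.7) and Ddit4 (310.1), and 427_DMSO is the highest for Stc2 (0.300).

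**Figure D2:**
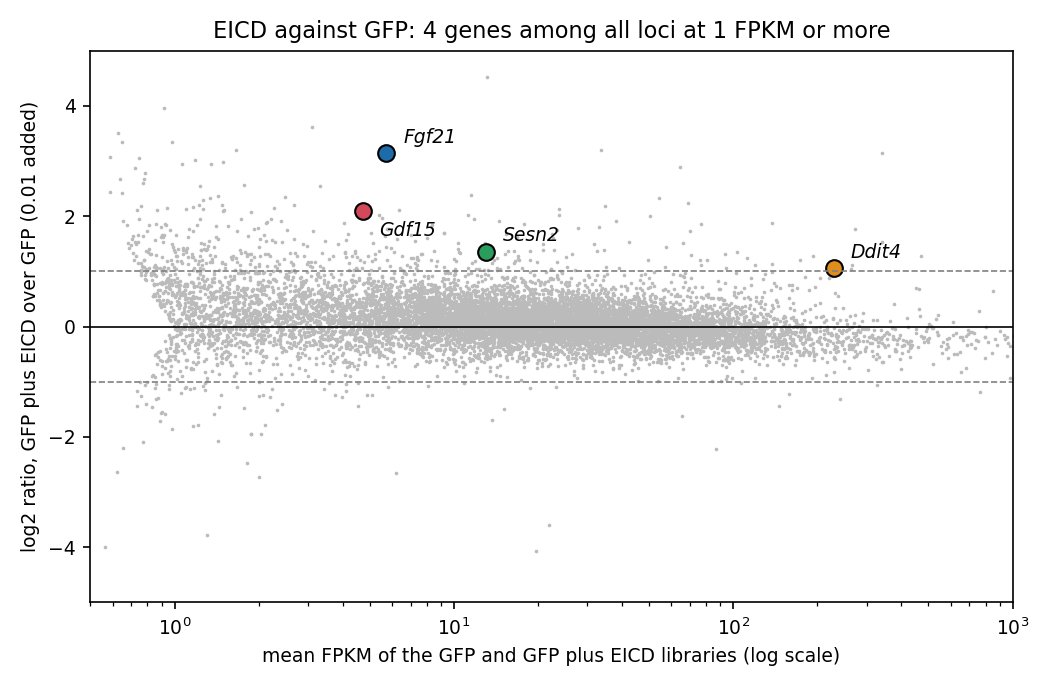
Log2 ratio of SP2bKD_GFP_EICD to SP2bKD_GFP (y axis) against the mean FPKM of both libraries (x axis, log scale) for loci at 1 FPKM or more in at least 1 of them; 10908 loci are drawn and 92 lie outside the axes. Fgf21, Gdf15, Sesn2 and Ddit4 lie above the dashed line at 2-fold, Ddit4 just above it at 1.06.

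PMA induces shedding of epithin/PRSS14, and the next question was where the same genes stood after 2 h of PMA. None was more than 2-fold higher with PMA in either line. In 427 cells, Fgf21 and Ddit4 were more than 2-fold lower, 2 of the 4 genes tested, where 5% of 10981 loci were more than 2-fold lower and 4.44% higher. Scaled to the same FPKM sum, the split of all loci past 2-fold in 427 cells went from 488 higher and 549 lower to 338 and 932. In the libraries labelled SP2bKD, Fgf21 was more than 2-fold lower, 1 of 3 tested, where 6.4% of 10987 loci were lower and 3.83% higher. In both lines Fgf21 reached 1 FPKM in the DMSO library alone, so it could be counted only as lower. The medians of the genes tested were -0.70 and -0.92, beside -0.12 and -0.15 over all loci. The same limit of Fgf21 holds for these medians. They rest on different sets of 4 and 3 genes, since Gdf15 was tested in 427 cells alone, and cannot be set against each other.

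Fgf21 went from 1.63 to 0.775 FPKM with PMA in 427 cells, 2.09-fold lower, and from 1.54 to 0.426 in the libraries labelled SP2bKD, 3.54-fold lower. The lower of these values rests on about 11.8 fragments. Ddit4, with an estimated 3459 to 14459 fragments per library, was 2.48-fold lower in 427 cells and 1.89-fold lower in the libraries labelled SP2bKD. Sesn2 differed less, 1.25-fold lower and 1.30-fold lower. Gdf15 was 1.06-fold lower with PMA in 427 cells, and in SP2bKD_PMA it was down to about 2.08 fragments. Gdf15 was at or below 0.344 FPKM in both untransfected libraries labelled SP2bKD, while Stc2 was at or below 0.300 in every library. For Fgf21 in 427 cells, the value fell short of 2-fold once 0.1 FPKM was added, with a log2 ratio of -0.99. In the libraries labelled SP2bKD it fell short with 1 FPKM added, with a log2 ratio of -0.83 in place of -1.83.

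The difference of the PMA effects, SP2bKD minus 427 on the log2 scale, was -0.76 for Fgf21, -0.053 for Sesn2 and 0.39 for Ddit4. Gdf15 alone among the 4 had a difference of more than 1 in size, where 4.6% of 11281 loci did, and it rests on those 2.08 fragments: with 1 FPKM added to each library it was -0.30. Early response genes were listed as a check of the PMA treatment. This list was chosen with results of these data known, so its counts here and below are a description. Of all loci tested, 4.44% were more than 2-fold higher and 5% lower in 427 cells. In the libraries labelled SP2bKD these shares were 3.83% and 6.4%. Of 10 early response genes, 8 were more than 2-fold higher in each line. The phosphatase gene Dusp1 was lower in the libraries labelled SP2bKD, from 15.5 to 7.19 FPKM. Among the higher genes was Fosl1, an AP-1 subunit, which went from 4.71 to 73.8 FPKM in 427 cells and from 1.92 to 49.5 in the libraries labelled SP2bKD.

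**Figure D3:**
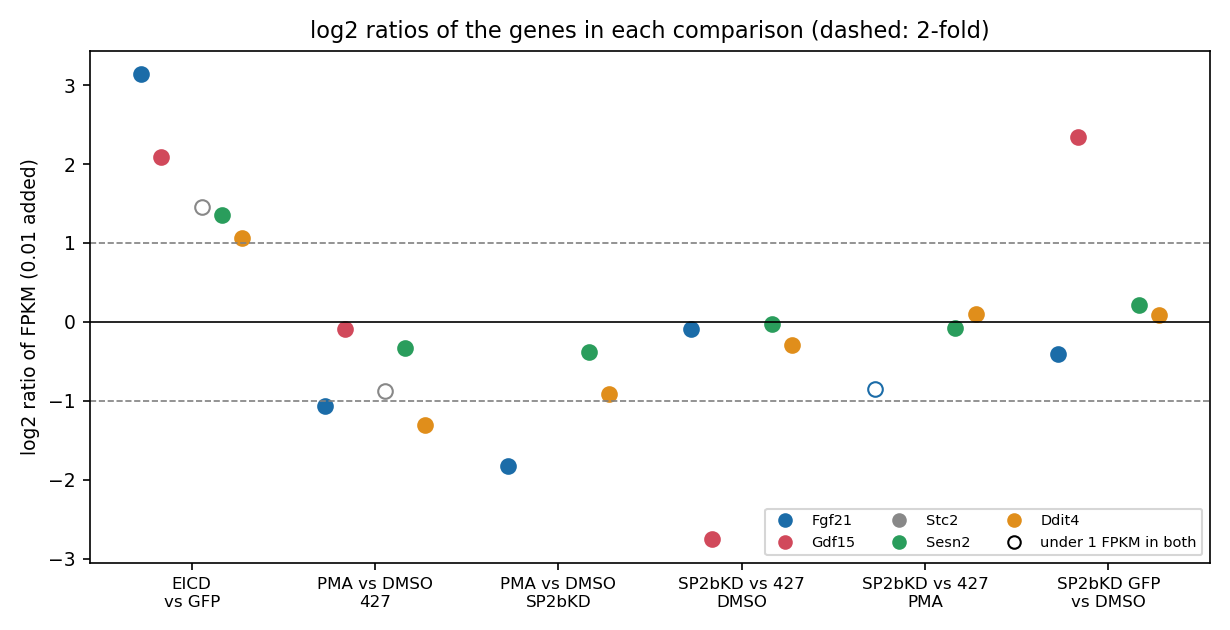
Log2 ratio of FPKM with 0.01 added (y axis) for each gene in each of the 6 comparisons (x axis), with open circles where neither library reached 1 FPKM and dashed lines at 2-fold. Ratios against a library listed at 0 or with 3 or fewer estimated fragments are not drawn; the 4 filled points for EICD lie at 1.06 or more, and no filled point for PMA against DMSO lies above 0.

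Between the lines, Gdf15 had the largest ratio among the genes tested. Stc2, which was too low to be tested, was also lower in the untransfected libraries labelled SP2bKD. For Stc2 about 32.2 fragments were estimated in 427_DMSO and 0 in SP2bKD_DMSO, and 18.0 in 427_PMA and 1.99 in SP2bKD_PMA. Gdf15 was 2.39 FPKM in 427_DMSO and 0.344 in SP2bKD_DMSO, 6.77-fold lower and resting on about 99.3 and 13.7 fragments. Its log2 ratio was -1.33 with 1 FPKM added in place of -2.76. It reached 1 FPKM in 427_DMSO alone, so it could be counted only as lower. Fgf21, Sesn2 and Ddit4 had log2 ratios of -0.086, -0.026 and -0.30 in the same comparison, so that 1 of 4 genes was more than 2-fold lower, where 3.13% of 11078 loci were and 3.92% were higher. After scaling each library to the same FPKM sum, which moves the median of all loci by 0.96, the ratios of these 3 genes turned positive, to 0.83, 0.93 and 0.67, while that of Gdf15 stayed negative. The split of all loci past 2-fold then went from 434 higher and 347 lower to 5661 and 119. With PMA, Gdf15 was again lower in the library labelled SP2bKD, at 2.25 and 0.0465 FPKM, and its log2 ratio was -1.63 with 1 FPKM added to each. It was 1 of 3 genes tested, where 3.27% of 10840 loci were lower and 2.56% higher. Here too it reached 1 FPKM in the 427 library alone. Sesn2 and Ddit4 differed by -0.079 and 0.094 on the log2 scale, which became 1.15 and 1.34 after scaling to the same sum, with a shift of 1.24 in the median of all loci and a split of 8555 higher and 107 lower in place of 278 and 354.

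SP2bKD_GFP and SP2bKD_DMSO are both labelled as knockdown cells, but differ in transfection, sorting and serum, and the clone is named for the transfected cells alone, so that these factors cannot be told apart. Gdf15 was 5.07-fold higher in the GFP library, at 1.78 against 0.344 FPKM, resting on about 69.6 and 13.7 fragments. With 1 FPKM added to each, its log2 ratio was 1.05 in place of 2.34. It was the 1 gene of 4 past 2-fold, where 4.01% of 11066 loci were higher and 5.14% lower. It reached 1 FPKM in the GFP library alone, so it could be counted only as higher. Fgf21 was at a log2 ratio of -0.40, Sesn2 at 0.21 and Ddit4 at 0.083. Beside this, 8 of the 10 early response genes were more than 2-fold higher in the GFP library, with Fos, an AP-1 subunit, at 0.823 FPKM in SP2bKD_DMSO and 148.4 in SP2bKD_GFP. Their part in the level of Gdf15 was not tested. Since the GFP library is also the reference for EICD, the comparisons share it: Gdf15 was at 0.344, 1.78 and 7.65 FPKM in SP2bKD_DMSO, SP2bKD_GFP and SP2bKD_GFP_EICD.

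Among the relatives of these genes, Sesn1 and Sesn3 went in the same directions as Sesn2 with PMA and with EICD, but by other amounts. Sesn1, a sestrin known as a p53 target, had 11.0 FPKM in 427_DMSO, 3.64 in 427_PMA, 18.0 in SP2bKD_DMSO, 5.51 in SP2bKD_PMA, 8.80 in SP2bKD_GFP and 10.6 in SP2bKD_GFP_EICD. It was lower with PMA, by log2 ratios of -1.60 and -1.70, and at 0.26 with EICD, where Sesn2 was at 1.36. Sesn3 had 9.08, 5.30, 9.71, 5.26, 4.33 and 5.76 FPKM in the same order of libraries, with log2 ratios of -0.78 and -0.88 with PMA and 0.41 with EICD. Thus Sesn2 had a higher FPKM than Sesn1 and Sesn3 in the EICD library and a lower one than both in the DMSO libraries. Adm, the gene of adrenomedullin, was at 0.374 FPKM or less and Ddit4l, the relative of Ddit4, at 0.305 or less in every library. Stc1 and Fgf23 were listed at 0 in all 6, and Fgf15 was at 0.0643 in 427_PMA and listed at 0 in the others.

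Receptors for the secreted factors were mostly near 0, and Fgfr2 and Ramp2 were not matched by symbol. Klb, the gene of beta-Klotho, was between 0.0109 and 0.0301 FPKM, Gfral was listed at 0 in 5 libraries, and Ret was at 0.0352 or less. Calcrl, the receptor of adrenomedullin 2, was listed at 0 in 5 libraries, whereas its partner Ramp3 went from 0.173 to 1.86 FPKM with PMA in 427 cells and from 0.228 to 1.63 in the libraries labelled SP2bKD. The FGF receptors Fgfr1 and Fgfr3 were expressed. With EICD, Fgfr1 went from 1.17 to 2.87 FPKM and Fgfr3 from 4.74 to 9.91. They were 2 of the 3 receptor genes tested, where 3.93% of 11000 loci were more than 2-fold higher and 0.836% lower.

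Among 15 regulators of the integrated stress response, 8 exceeded 2-fold in the EICD library and 0 were lower by that much, with a median log2 ratio of 1.06. Of all 11000 loci tested, 3.93% were more than 2-fold higher and 0.836% lower. This list and that of the ATF4 targets below were chosen with results of these data known, so their counts are a description. Trib3, a pseudokinase that restrains ATF4, went from 6.57 to 60.9 FPKM, and Chac1, which degrades glutathione, from 15.2 to 113.3. Ddit3, the gene of the transcription factor CHOP, went from 12.5 to 43.1 FPKM, a log2 ratio of 1.79. Atf4 mRNA itself was at 139.6 and 186.9 FPKM, a log2 ratio of 0.42. Of 15 ATF4 targets in amino acid metabolism, 10 were more than 2-fold higher and 0 lower, with a median of 1.11. They included the cystine transporter gene Slc7a11 at 3.69 and 19.3 FPKM and the translation inhibitor gene Eif4ebp1 at 53.8 and 133.5.

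The lists of other stress programmes were also chosen with results of these data known and differ in size. Their counts and medians are a description, beside the share of all loci given above. Of 11 endoplasmic reticulum chaperones and related genes, 1 was more than 2-fold higher with EICD, Herpud1, which takes part in the degradation of misfolded proteins, from 34.1 to 97.7 FPKM, and the median was -0.31. Of 14 p53 targets, 2 were higher, the death receptor gene Fas at a log2 ratio of 1.70 and Bbc3, the gene of PUMA, at 1.58, and the median was 0.36. Of 10 hypoxia genes tested, Vegfa and Ndrg1 were higher at 2.00 and 1.92, Ankrd37 was lower at -1.24, and the median was 0.064. Of 21 other genes of the mTORC1 pathway, 0 were past 2-fold in either direction, with a median of 0.12. Akt1s1, the gene of the mTORC1 component PRAS40, was at 55.2 and 31.8 FPKM, and Mtor itself at 12.0 and 15.6.

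With PMA few genes of the stress lists were past 2-fold. Of all loci tested, 4.44% were higher and 5% lower in 427 cells. In the libraries labelled SP2bKD, 3.83% of loci were higher and 6.4% lower. Of the 15 regulators, Atf3 was higher in 427 cells, from 2.74 to 9.91 FPKM, and Nupr1 was lower in the libraries labelled SP2bKD, from 14.8 to 4.50. Of the ATF4 targets, Vldlr, a lipoprotein receptor gene, was lower in both lines at -1.83 and -1.68, and Slc7a3, an arginine transporter gene, was lower in 427 cells at -1.17. The list medians were -0.071 and -0.28 for the regulators and 0.032 and 0.023 for the targets. Of 14 p53 targets, 2 were more than 2-fold lower in 427 cells and 3 in the libraries labelled SP2bKD, with 0 higher in either and medians of -0.16 and -0.28. These were Trp53inp1 at -1.94 and -2.43, Sesn1 in both lines, and Eda2r at -1.24 in the libraries labelled SP2bKD. Of 10 hypoxia genes, Vegfa and Egln3 were more than 2-fold higher with PMA in both lines, Vegfa by log2 ratios of 2.39 and 2.57. Bnip3, a mitochondrial hypoxia gene, was lower in the libraries labelled SP2bKD at -1.28, and the list medians were 0.010 and -0.078. Ddit4, also known as a hypoxia gene, was at -1.31 and -0.92. In the mTORC1 list 0 of 21 genes were past 2-fold in 427 cells, and 1 of 20, Gatsl2, which encodes a relative of the arginine sensor of this pathway, was lower in the libraries labelled SP2bKD at -1.06.

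**Figure D4:**
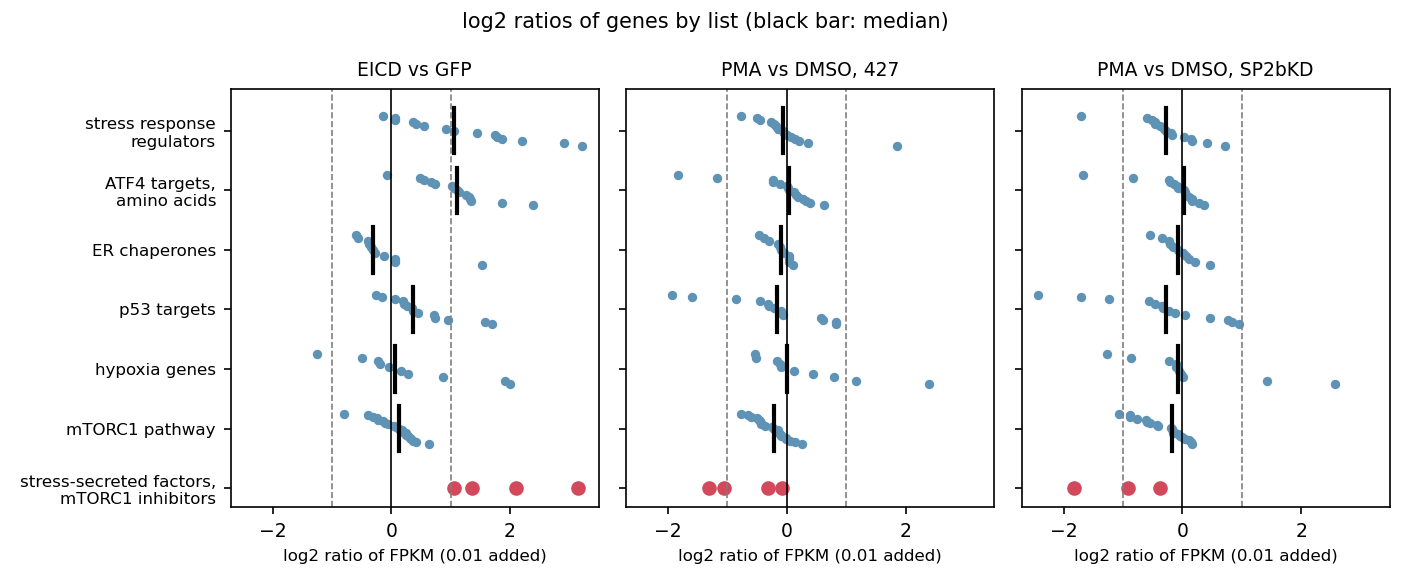
Log2 ratio of FPKM with 0.01 added (x axis) for each gene of 6 lists (blue, black bars at the median) and for the genes described here (red) in 3 comparisons; dashed lines mark 2-fold. With EICD the medians were 1.06 for the stress response regulators, 1.11 for the ATF4 targets and -0.31 for the endoplasmic reticulum chaperones. They were 0.36 for the p53 targets, 0.064 for the hypoxia genes and 0.12 for the mTORC1 pathway. The lists were chosen with results of these data known, so the medians are a description.

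The genes closest in pattern were found by Pearson's r of log2(FPKM + 1) over the 6 libraries, among 2516 annotated loci that varied by at least 1 on that scale. With only 6 points, which share the libraries, r is a description. Ddit3 was first for both Fgf21 (0.990) and Sesn2 (0.997), and these values were 0.896 and 0.966 over the 5 libraries without EICD. Gadd45a (0.989) and Btn1a1 (0.989) came next for Fgf21, and Nr3c2 (0.997) and Cdnf (0.996) for Sesn2. For Gdf15 they were Mapk13 (0.996), Pmaip1 (0.990) and Cyp3a13 (0.977), and for Ddit4 they were Gpr19 (0.999), Sgsh (0.997) and Plxna3 (0.995). These values for Gdf15 and Ddit4 were 0.945 or more without the EICD library. Adm2 was nearest to Crygn (0.993), St14 (0.990), from which the EICD construct derives, and Slc7a11 (0.983). Crygn was listed at 0 in every library but the EICD library, where it had 10.9 FPKM, so its r has no value without that library. The values of Adm2 with St14 and Slc7a11 dropped to 0.622 and 0.598 without the EICD library. Stc2 was nearest to Sdc3 (0.944), Arfgef3 (0.934) and Serpina3b (0.932).

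Among the 6 genes themselves, Fgf21 and Sesn2 were the most alike, with r of 0.981, and 0.789 without the EICD library. Ddit4 followed Fgf21 (0.890) and Sesn2 (0.884) about as closely with that library as without it (0.897 and 0.904). Gdf15 had r between 0.688 and 0.807 with Fgf21, Adm2, Sesn2 and Ddit4, and between 0.287 and 0.438 without the EICD library. Adm2 had r of 0.932 with Fgf21 and 0.934 with Sesn2, which became -0.32 and -0.48 without the EICD library, where a single library lists it above 0. Stc2 had r of 0.300 or less with each of the others but Gdf15, with which it had 0.641.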

How the data were processed

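Poly(A) RNA of 6 libraries was sequenced as paired ends without strand information. The authors aligned the reads to GRCm38 with TopHat2 2.1.1 and deposited FPKM from Cufflinks and Cuffdiff 2.1.1, 1 value per locus and library; the processing notes also name STAR 2.4.0b, without a role. FPKM depends on the assembled gene models (12836 annotated genes with new isoforms, 8948 annotated genes, 3217 new loci), and very short or overlapping loci can take values that are not their own: the 10 highest loci held 85.6% to 94.2% of the FPKM sum of a library.

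Log2 ratios were computed from the deposited FPKM with 0.01 added to both libraries, with Python 3.11.15, NumPy 2.4.6 and pandas 2.3.3, and plots with matplotlib 3.10.9. The study's own plot added 0.001 to the EICD library alone, which is among the alternatives tried. A locus entered a comparison when either library reached 1 FPKM, and was called past a fold of 2. The scripts were tested on simulated data. Depth was estimated from the lowest FPKM of single-transcript genes over 2500 bases (58 to 95 genes per library), and fragments per gene, from the longest annotated transcript, are approximate and tend to be too high.

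The 6 genes and the gene lists were chosen with earlier results of these data known. Named genes were the 6 genes, their relatives, Sppl2b, St14, Atf4 and Ddit3, at most 5 genes per list and comparison with the largest ratio past 2-fold, receptors by level, and the 3 nearest patterns per gene. Fos, Dusp1, Akt1s1 and Mtor are outside this rule and were named after their values were seen. Slc7a5, Manf, Fgfr2, Ramp2, Nprl2, Castor1 and Castor2 were not matched by symbol, and the older symbols Gatsl3 and Gatsl2 were used for the last pair. Krt5, planned as an epithelial marker, was not matched either. Protein sequences were not used here.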

Additional observations from a re-analysis of the deposited data

How the results depend on the processing

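The alternatives were 0.001, 0.1 or 1 added to both libraries, 0.001 added to the EICD library alone, equal upper quartiles, a median log2 ratio of 0, an FPKM sum of 1000000, and minima of 0.1 and 10 FPKM. Of the recomputed gene counts 75 stayed within 1.5 times and 5 moved. These counts are small, many of them 0 and none above 4, so a count that stayed says little. Among the 75 is the count of genes more than 2-fold higher with EICD, which went from 4 to 3 with an FPKM sum of 1000000. With 0.1 or with 1 added, 1 gene instead of 2 was more than 2-fold lower with PMA in 427 cells. With 1 added, 0 genes were more than 2-fold lower with PMA in the libraries labelled SP2bKD, and 0 had a difference of PMA effects over 1. With an FPKM sum of 1000000, a scaling set by the 10 highest loci that also makes the 0.01 added weigh more, 2 genes instead of 0 were more than 2-fold higher in SP2bKD_PMA than in 427_PMA. Of the single values 153 stayed and 7 moved across the 2-fold line, with 0 reversals among values past it. The log2 ratio of EICD to GFP ranged from 2.39 to 3.15 for Fgf21, from 1.17 to 1.36 for Sesn2 and from 0.88 to 1.06 for Ddit4, and was at least 1.64 for Gdf15. That of PMA in 427 cells ranged from -1.18 to -0.57 for Fgf21 and from -1.56 to -1.27 for Ddit4, and in the libraries labelled SP2bKD from -1.85 to -0.83 for Fgf21. Gdf15 in SP2bKD_DMSO against 427_DMSO ranged from -2.81 to -1.33, and in GFP against DMSO from 1.05 to 2.41. The percentage of all loci past 2-fold depends on the minimum: for higher with EICD it was 10.1% at 0.1 FPKM and 1.72% at 10 FPKM. Leaving out the EICD library from the pattern comparison was chosen after seeing the data. No paired analysis was possible because each condition has 1 library, and no library could be left out within a condition. Adm2, Stc2 and Gdf15 in SP2bKD_PMA are limited by depth, and the amount added sets most of their ratio.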
